A study of Rattus norvegicus with 23 samples.

Results

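S100a8, S100a9, Mmp8, Mmp9, Csf3r, Il1r2 and Lcn2 are 7 genes that rat neutrophils express, and they are described here in whole liver as 7 of the 28913 gene entries of a count table. They were found by symbol, and they had been chosen because of how their levels differed among the groups and within 1 of them, so their levels and fold changes between the groups are given as a description with no p-value, and the number called is given only beside the share of all genes called. The study set up models in the Sprague Dawley rat of portosinusoidal vascular disease, in which the fine branches of the portal vein and the sinusoids are damaged without cirrhosis, and sequenced liver RNA in 23 libraries. The 10 Selfox libraries came from rats fed a diet enriched in selenium for 8 weeks and injected into a vein 8 times, once a week, with chemotherapy: 3 mg/kg oxaliplatin, 25 mg/kg 5-fluorouracil and 45 mg/kg folinic acid. The 7 LPS libraries came from rats that received lipopolysaccharide, a component of the bacterial outer membrane, at 1 mg/kg 2 times per week for 8 weeks through a catheter placed by surgery into the portal system. Rats of the 6 Control libraries had no treatment. Diet and drugs were given together in Selfox and cannot be told apart, and the labels describe surgery for LPS rats but none for Control rats. The labels do not say that each library is a separate rat, so every p-value here measures the spread between libraries.

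Neutrophils are short-lived white blood cells that circulate in liver sinusoids and enter the tissue when chemokines and adhesion molecules call them. They carry their proteins in granules that are filled in a fixed order while the cell matures in the marrow: azurophil granules with myeloperoxidase and elastase come first, specific granules with lactoferrin, collagenase and lipocalin 2 next, and gelatinase granules last. S100a8 and S100a9 encode the 2 subunits of calprotectin, a calcium- and zinc-binding complex that fills the cytosol of neutrophils and monocytes, and mature neutrophils stop making most azurophil transcripts while transcripts of calprotectin and of surface receptors stay high. Csf3r and Il1r2 are receptors and not granule proteins, and Lcn2 is also made by hepatocytes and epithelial cells.

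RefSeq promoter sequences of the GRCr8 assembly were available for 4 of the 7 genes, and they are shown because the 7 genes tended to be high in the same libraries. Each runs from 250 bases before to 50 bases after the transcription start, 5′ to 3′ on the strand of the gene. Capitals mark matches, on either strand, to letters bound by factors that neutrophil precursors use: TTNNGNAA for C/EBP, GGG and CC with 5 bases of any kind between them for NF-kB and GAGGAA for PU.1.
S100a9: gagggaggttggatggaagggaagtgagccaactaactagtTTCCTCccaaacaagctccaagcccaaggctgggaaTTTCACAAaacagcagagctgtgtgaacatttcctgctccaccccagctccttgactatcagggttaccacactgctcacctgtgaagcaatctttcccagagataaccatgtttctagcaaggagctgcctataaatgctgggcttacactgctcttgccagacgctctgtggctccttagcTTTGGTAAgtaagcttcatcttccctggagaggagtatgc
Mmp8: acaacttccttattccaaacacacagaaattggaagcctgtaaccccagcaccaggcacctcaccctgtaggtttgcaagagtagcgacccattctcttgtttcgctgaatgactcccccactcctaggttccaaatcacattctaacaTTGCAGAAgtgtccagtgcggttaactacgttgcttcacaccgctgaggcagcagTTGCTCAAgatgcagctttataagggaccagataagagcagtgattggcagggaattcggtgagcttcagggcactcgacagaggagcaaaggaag
Csf3r: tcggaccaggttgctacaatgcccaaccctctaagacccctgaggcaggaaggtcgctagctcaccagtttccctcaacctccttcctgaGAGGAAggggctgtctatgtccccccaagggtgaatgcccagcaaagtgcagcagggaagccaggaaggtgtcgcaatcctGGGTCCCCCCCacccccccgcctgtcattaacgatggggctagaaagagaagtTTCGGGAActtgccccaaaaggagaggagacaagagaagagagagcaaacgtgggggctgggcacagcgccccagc
Lcn2: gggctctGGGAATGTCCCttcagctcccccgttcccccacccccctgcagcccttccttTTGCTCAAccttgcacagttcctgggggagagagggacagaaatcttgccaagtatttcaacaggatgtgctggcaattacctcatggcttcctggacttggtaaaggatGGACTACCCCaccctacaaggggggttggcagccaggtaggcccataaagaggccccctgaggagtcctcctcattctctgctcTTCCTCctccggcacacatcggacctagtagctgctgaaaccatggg

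In that assembly the S100a9 sequence is chr2:178490573-178490872 on the minus strand, that of Mmp8 is chr8:13008640-13008939 on the plus strand, that of Csf3r is chr5:143582970-143583269 on the plus strand and that of Lcn2 is chr3:36081731-36082030 on the minus strand. All 4 sequences held the C/EBP letters, which 41.3% of all 33469 rat promoter sequences of this length held. The S100a9 matches began at bases -173 and 11 counted from the start of transcription, and those of Mmp8 at -101 and -46. Csf3r had a C/EBP match at -26 and Lcn2 had one at -191. The NF-kB letters, present in 47.3% of all promoters, were found in Csf3r at -79 and -78 as 1 overlapping pair, and in Lcn2 as an overlapping pair at -243 and -242 and as a single match at -81. The PU.1 letters, present in 27.6% of all promoters, were found in S100a9 at -209, in Csf3r at -160 and in Lcn2 at 4. Letters this short are frequent, and a match is a description of the sequence, not a binding site.

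Library size was 65.1 to 74.8 M counts in Selfox and 70.4 to 79.2 M in LPS, against 31.9 to 53.8 M in Control, so low genes were measured with fewer reads in Control. Levels are CPM, counts scaled to a common library size after TMM scaling, which can be compared between libraries for 1 gene but not between genes, because they are not divided by gene length. Of the 15079 genes with enough reads to test, edgeR's quasi-likelihood test with Benjamini-Hochberg adjustment placed 4385 past an adjusted p of 0.05 in Selfox against Control, 2217 in LPS against Control and 2187 in Selfox against LPS. The median log2 fold change of all tested genes was 0.01, 0.01 and 0.00 in these comparisons. All 7 genes passed the filter on low counts. Libraries are named by their group and the number in their label.

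S100a8 and S100a9, the calprotectin subunits, reached their highest levels in a part of the Selfox livers. S100a8 had 27.2, 19.1, 12.4, 7.36 and 7.23 CPM in Selfox 3, 8, 5, 10 and 4, and 1.76, 0.988, 0.987, 0.752 and 0.669 CPM in Selfox 6, 7, 2, 9 and 1. In the LPS libraries 1 to 7 it had 2.39, 2.37, 1.85, 0.995, 1.43, 0.868 and 1.32 CPM. In Control 40, 41, 46, 49, 52 and 55 it had 3.35, 0.839, 1.25, 1.03, 0.608 and 1.30 CPM. The 5 highest Selfox libraries lay above every LPS and Control library, and the 5 lowest lay within the range of the Control libraries. The step between the fifth and the sixth Selfox library was 4.12-fold, and Control 40 and LPS 1, 2 and 3 had levels inside it.

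S100a9 followed the same division, with 50.9, 35.7, 22.6, 14.6 and 14.4 CPM in Selfox 3, 8, 5, 4 and 10 and between 2.11 and 3.68 CPM in the other 5. It ranged from 1.48 to 4.66 CPM in LPS with a median of 3.31 CPM, and from 1.79 to 5.06 CPM in Control with a median of 2.64 CPM. The LPS and Control ranges overlapped almost completely, and Control 40 was the highest Control library for both subunits. S100a9 had 1.81 to 3.22 reads for each read of S100a8 in Selfox (median 2.05), 1.71 to 2.50 in LPS (median 1.95) and 1.51 to 3.38 in Control (median 2.32). Among Selfox libraries the level varied 40.6-fold for S100a8 and 24.1-fold for S100a9. The ratio was 1.81 to 2.01 in Selfox 3, 4, 5, 8 and 10 and 2.10 to 3.22 in the other 5, so it was lower where both levels were high. The highest ratios, 3.22 in Selfox 1 and 2.94 in Selfox 9, rest on 46 and 50 reads of S100a8. In Selfox against Control the log2 fold change was 2.47 ± 0.79 (SE) for S100a8 and 2.30 ± 0.71 for S100a9. In LPS against Control it was 0.18 ± 0.80 and 0.10 ± 0.71 for S100a8 and S100a9, and in Selfox against LPS it was 2.29 ± 0.72 and 2.20 ± 0.65. Control 40 bears on the LPS values: without it the S100a8 difference of LPS from Control was 0.67.

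**Figure D1:**
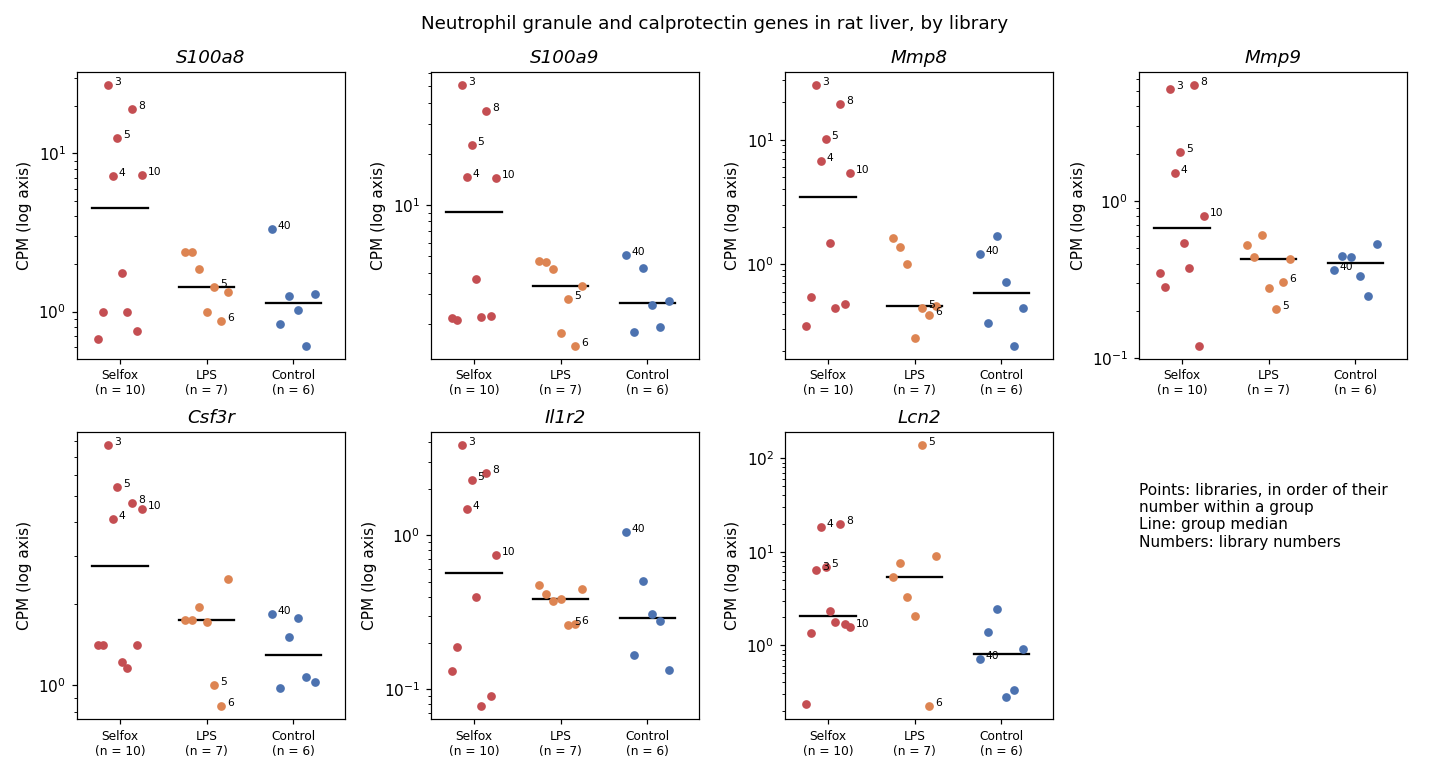
CPM on a log axis for each of the 7 genes, with 1 point per library in Selfox, LPS and Control from left to right; the line is the group median and the numbers are library numbers. For S100a8, S100a9, Mmp8 and Csf3r a gap divides Selfox 3, 4, 5, 8 and 10 from the other 5 Selfox libraries, and LPS 5 stands apart for Lcn2.

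Mmp8 and Mmp9 encode secreted proteases stored in neutrophil granules, a collagenase that cuts fibrillar collagen and a gelatinase that cuts denatured collagen and basement membrane. Mmp8 had 27.6, 19.5, 10.2, 6.76 and 5.41 CPM in Selfox 3, 8, 5, 4 and 10, and 1.47, 0.541, 0.481, 0.442 and 0.320 CPM in Selfox 6, 2, 9, 7 and 1. It ranged from 0.255 to 1.64 CPM in LPS (median 0.462) and from 0.221 to 1.69 CPM in Control (median 0.582). Its highest Selfox library held 86.3 times the level of its lowest, the widest range of the 7 genes within Selfox, while LPS and Control overlapped. The log2 fold change was 3.24 ± 0.98 in Selfox against Control, 0.05 ± 1.00 in LPS against Control and 3.19 ± 0.88 in Selfox against LPS.

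Mmp9 was a low gene, with 5.47 and 5.12 CPM in Selfox 8 and 3, 2.05 and 1.5 CPM in Selfox 5 and 4, and 0.801 CPM in Selfox 10. The other 5 Selfox libraries had 0.120 to 0.538 CPM, the LPS libraries 0.207 to 0.612 CPM and the Control libraries 0.249 to 0.536 CPM. The same 5 Selfox libraries were the highest, but the widest step came after the first 2 of them, at 2.49-fold, and Selfox 10 lay above the LPS maximum. The log2 fold change was 2.07 ± 0.70 in Selfox against Control, 0.02 ± 0.74 in LPS against Control and 2.05 ± 0.62 in Selfox against LPS. At the read numbers in Control the LPS value of this gene was not stable, since it was -0.57 after all libraries had been thinned to equal depth.

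Csf3r encodes the receptor for granulocyte colony-stimulating factor (G-CSF), which drives neutrophil production and release. It had 7.72, 5.43, 4.72, 4.48 and 4.12 CPM in Selfox 3, 5, 8, 10 and 4 and between 1.16 and 1.41 CPM in the other 5. The LPS libraries ranged from 0.840 to 2.47 CPM (median 1.75) and the Control libraries from 0.979 to 1.84 CPM (median 1.29). The division of Selfox was 2.92-fold wide here, and this gene varied least of the 7 among Selfox libraries, 6.67-fold. The log2 fold change was 1.27 ± 0.42 in Selfox against Control, 0.26 ± 0.43 in LPS against Control and 1.01 ± 0.38 in Selfox against LPS.

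Il1r2 encodes the decoy receptor for interleukin-1, which binds the cytokine and passes on no signal. It had 3.83, 2.52, 2.29, 1.47 and 0.744 CPM in Selfox 3, 8, 5, 4 and 10 and 0.0780 to 0.397 CPM in the other 5. The LPS libraries had 0.262 to 0.472 CPM (median 0.383), and the Control libraries had 0.134 to 1.05 CPM (median 0.292). Control 40, at 1.05 CPM, was above Selfox 10, and 4 of the 10 Selfox libraries were above every Control library. The log2 fold change was 1.5 ± 0.74 in Selfox against Control, -0.14 ± 0.79 in LPS against Control and 1.64 ± 0.67 in Selfox against LPS. Without Control 40 the LPS difference was 0.46 and the Selfox difference 2.10.

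Lcn2 encodes lipocalin 2, which withholds iron from bacteria by binding their siderophores, and it behaved differently from the other 6. It had 19.9, 18.3, 6.80, 6.32 and 2.31 CPM in Selfox 8, 4, 5, 3 and 6 and 0.233 to 1.77 CPM in the other 5. In the LPS libraries 1 to 7 it had 5.40, 7.66, 3.27, 2.07, 138.1, 0.224 and 9.10 CPM. In Control 40, 41, 46, 49, 52 and 55 it had 0.706, 1.40, 2.41, 0.282, 0.332 and 0.916 CPM. Of the 7 LPS libraries 5 exceeded every Control library, and LPS 5 was 15.2-fold above the next LPS library. In LPS 5 the other 6 genes lay inside or below the ranges of the remaining LPS libraries, with S100a8 at 1.43 CPM and Mmp8 at 0.441 CPM.

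The log2 fold change of Lcn2 was 2.61 ± 1.19 in Selfox against Control, 4.58 ± 1.30 in LPS against Control and -1.97 ± 0.92 in Selfox against LPS. LPS 5 decided the last of these: without it Lcn2 was 0.38 higher in Selfox than in LPS on the log2 scale, and DESeq2, which limits outlying counts, gave 0.47. Without LPS 5 the difference of LPS from Control was 2.22 and was no longer called.

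Counted by edgeR's quasi-likelihood test, 5 of the 7 genes were called higher in Selfox than in Control (not Il1r2 or Lcn2), beside 14.2% of all tested genes called higher. In LPS against Control 1 of 7 was called higher, Lcn2, beside 7.71% of all tested genes. In Selfox against LPS 4 of 7 were called higher (S100a8, S100a9, Mmp8 and Mmp9), beside 6.86%. The median log2 fold change of the 7 was 2.30, 0.10 and 2.05 in these 3 comparisons. The genes were picked on these same contrasts, so the counts describe the choice. The counts also rest on a few libraries and on the test: with limma voom 0 of 7 were called in each comparison, and in Selfox against Control 2 were called without Control 52. In Selfox against LPS 1 was called without Selfox 3, LPS 4 or LPS 6, and 2 without Selfox 8 or LPS 5; in LPS against Control 0 were called without LPS 5, Control 49 or Control 52. Without Selfox 8, LPS 5, LPS 6, LPS 7 and Control 55, the libraries in which the clock gene Dbp exceeded its counterpart Arntl, 0 were called in each comparison.

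Within Selfox, 6 of the 7 genes had their 5 highest levels in the same libraries, 3, 4, 5, 8 and 10, and Lcn2 shared 4 of them, with Selfox 6 in place of Selfox 10. Among all 15079 tested genes, 431 had their 5 highest Selfox levels in these libraries, which is 2.86%. This agreement was part of what led to the choice of the genes. The labels give no dose, date or batch that separates the 5 libraries from the others. Whole liver was sequenced, so more neutrophils, more RNA per neutrophil and RNA from other cells that express these genes cannot be told apart.

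Whether the genes also varied together in the groups without such a division was examined with S100a8 as the common partner, over 7 LPS and 6 Control libraries separately, a test chosen with these values in view. Among LPS libraries S100a9 followed S100a8 with Pearson's r 0.96 (exact permutation p = 0.000595, 0.00714 adjusted over 12 relations) and Spearman's rho 0.96 (exact p = 0.00278, adjusted 0.0333). Mmp8 followed it with r 0.94 (exact permutation p = 0.00337, adjusted 0.0202) and rho 0.93 (exact p = 0.00675, adjusted 0.0405). Leaving out LPS 1 and LPS 2, the libraries farthest from the median, gave r 0.97 for S100a9 and 0.83 for Mmp8. Among Control libraries S100a9 had r 0.87 (exact permutation p = 0.00972, adjusted 0.0389) and rho 0.89 (exact p = 0.0333, adjusted 0.133), and r was 0.82 without Control 40 and Control 52.

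The other 9 relations did not pass the adjusted threshold. Mmp8 in Control had r 0.71 (exact permutation p = 0.0972, adjusted 0.262) and rho 0.71 (exact permutation p = 0.136, adjusted 0.333). Lcn2 had r 0.42 in LPS (exact permutation p = 0.358, adjusted 0.430) and 0.20 in Control (exact permutation p = 0.738, adjusted 0.738), the lowest r in each group. As a description, calprotectin and collagenase levels varied together among LPS livers at levels far below those of the upper Selfox libraries. The genes and the test were chosen with these data in view, so the p-values give no independent support. All 3 measures come from the same libraries and share their depth.

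Other neutrophil genes, which the choice of the 7 did not name, moved in both directions. Of 72 genes on lists of azurophil granule, specific and gelatinase granule, receptor and adhesion, and cytosol and lineage genes, 67 had an entry in the table and 49 were tested. In Selfox against Control 9 rose and 11 fell, beside 14.2% and 14.9% of all tested genes, and the median log2 fold change was 0.02. In Selfox against LPS 8 rose and 9 fell, beside 6.86% and 7.64%, with a median of 0.04. In LPS against Control 3 fell (Slc11a1, Fcgr3a and Hdc), beside 6.99%, and 1 did without Control 52. There 0 of 49 rose, while 3 were higher at an unadjusted p under 0.05, DESeq2 called 1 and limma voom called 0; the median was 0.06. The rises are sensitive to single libraries: in Selfox against Control 4 were called without Control 49 and 2 by limma voom, and in Selfox against LPS 2 were called without Selfox 3 and 3 without Selfox 8. Without Selfox 8, LPS 5 to 7 and Control 55 the rises were 3 in Selfox against Control and 0 in Selfox against LPS.

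Of the azurophil granule genes, 3 of 14 could be tested. Mpo, which encodes myeloperoxidase, reached at most 0.135 CPM in Selfox, 0.0834 CPM in LPS and 0.103 CPM in Control, and Elane, neutrophil elastase, at most 0.0983 CPM in Selfox, 0.0278 CPM in LPS and 0 in Control. Prtn3 and Ctsg, proteinase 3 and cathepsin G, were as low, with maxima of 0.0295 and 0.0541 CPM in Selfox, 0.0250 and 0.0280 CPM in LPS and 0.0553 and 0.0559 CPM in Control. These early granule transcripts were therefore at or near 0 in every library, the 5 highest Selfox libraries included. Np4, RatNP-3b and Defa5, on the same list and also not tested, reached at most 0.0850, 0.0567 and 0.227 CPM in Selfox. Their maxima were 0.167, 0.0834 and 0.204 CPM in LPS and 0.357, 0.179 and 0.166 CPM in Control. The 3 tested genes, Ctsc, Gusb and Cd63, are lysosomal genes that many liver cells express. Ctsc was higher by 0.30 ± 0.09 in Selfox than in Control (adjusted p = 0.0168), a call lost without Control 49, and Gusb lower, at -0.28 ± 0.08 (adjusted p = 0.0122).

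Of the specific and gelatinase granule genes, 13 of 18 were tested. In Selfox against Control 2 rose and 4 fell, beside 14.2% and 14.9% of all tested genes. Ltf, which encodes lactoferrin, was listed at 0 in all 23 libraries. Camp, the precursor of the cathelicidin peptide, ranged from 0 to 0.840 CPM in Selfox (median 0.152), from 0 to 0.111 CPM in LPS and from 0 to 0.202 CPM in Control. It was higher in Selfox than in LPS by 2.44 ± 0.77 (adjusted p = 0.0344, above every LPS library in 6 of 10), a call lost without any 1 of Selfox 3, Selfox 8, LPS 2, LPS 3, LPS 4, LPS 6 or LPS 7. Adam8, a membrane protease of granulocytes, rose in Selfox against Control by 0.90 ± 0.25 (adjusted p = 0.00890), with 6 of 10 Selfox libraries above every Control library. Olfm4, which marks a subset of neutrophils, rose in Selfox against LPS by 1.74 ± 0.48 (adjusted p = 0.0166). The 4 that fell included Slc11a1 and Cyba, which macrophages express too. Slc11a1, a phagosomal metal transporter, was lower in Selfox, at -0.73 ± 0.12 (adjusted p = 0.000154), with all 10 Selfox libraries below every Control library. Cyba, a subunit of the NADPH oxidase, was lower, at -0.38 ± 0.10 (adjusted p = 0.00781). Slpi was lower by 0.89 on the log2 scale (adjusted p = 0.0274), a call lost without Control 41 or Control 52. Cybb was lower by 0.35 (adjusted p = 0.0496), a call lost in 11 of 16 fits with 1 library left out.

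Among receptors and adhesion molecules 18 of 21 were tested. In Selfox against Control 3 rose and 5 fell, beside 14.2% and 14.9% of all tested genes. Clec4e and Clec4d, paired lectin receptors of myeloid cells for microbial glycolipids, rose together. Clec4e had 0.130 to 5.79 CPM in Selfox (median 0.943), 0.0840 to 0.454 CPM in LPS and 0.0447 to 0.424 CPM in Control, and 6 of 10 Selfox libraries were above every Control library. Its log2 fold change was 2.78 ± 0.82 against Control (adjusted p = 0.0136) and 2.30 ± 0.70 against LPS (adjusted p = 0.0282), the second lost without Selfox 3, LPS 1, LPS 5 or LPS 6. Clec4d rose by 2.04 ± 0.63 (adjusted p = 0.0184) and 2.25 ± 0.58 (adjusted p = 0.0121) in these comparisons. Fpr1, a receptor for bacterial formyl peptides, rose against LPS by 3.07 ± 0.91 (adjusted p = 0.0245), where 5 of 10 Selfox libraries were above every LPS library.

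Cxcr2, the chemokine receptor that defines circulating neutrophils, had 0.0752 to 2.61 CPM in Selfox (median 0.753), 0.110 to 0.389 CPM in LPS and 0 to 1.07 CPM in Control. Its log2 fold change was 1.5 ± 0.75 against Control (adjusted p = 0.137) and 1.92 ± 0.69 against LPS (adjusted p = 0.0648), past the threshold in neither, and the related Cxcr1 was listed at 0 in all libraries. Ptafr, the receptor for platelet-activating factor, was lower, at -0.72 ± 0.14 in Selfox against Control (adjusted p = 0.000430), and Selplg, the ligand of P-selectin, at -0.58 ± 0.14 (adjusted p = 0.00363). Itgb2, the shared beta chain of the leukocyte integrins, was lower, at -0.49 ± 0.14 (adjusted p = 0.0122), a call lost without Control 52. Fcgr3a, a low-affinity IgG receptor, was lower in LPS than in Control, at -0.63 ± 0.16 (adjusted p = 0.0101), in 7 of 7 libraries below every Control library.

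Among cytosol and lineage genes 15 of 19 were tested. Of these 3 rose and 1 fell in Selfox against Control, beside 14.2% and 14.9% of all tested genes. Acod1, which makes the antimicrobial metabolite itaconate in activated myeloid cells, rose by 3.66 ± 1.04 (adjusted p = 0.0111). Padi4, which citrullinates histones in neutrophils, rose by 1.35 ± 0.43 (adjusted p = 0.0212), lost without Control 49. Stfa2, a stefin of neutrophils, rose by 3.05 ± 1.12 (adjusted p = 0.0430), lost without any 1 of Control 41, 46, 49, 52 or 55. Hdc, which makes histamine, was lower, at -2.36 ± 0.44 (adjusted p = 0.000509), with 2.15 CPM in the median Selfox library and 17.3 CPM in the median Control library. It is a gene of basophils, mast cells and neutrophils alike.

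**Figure D2:**
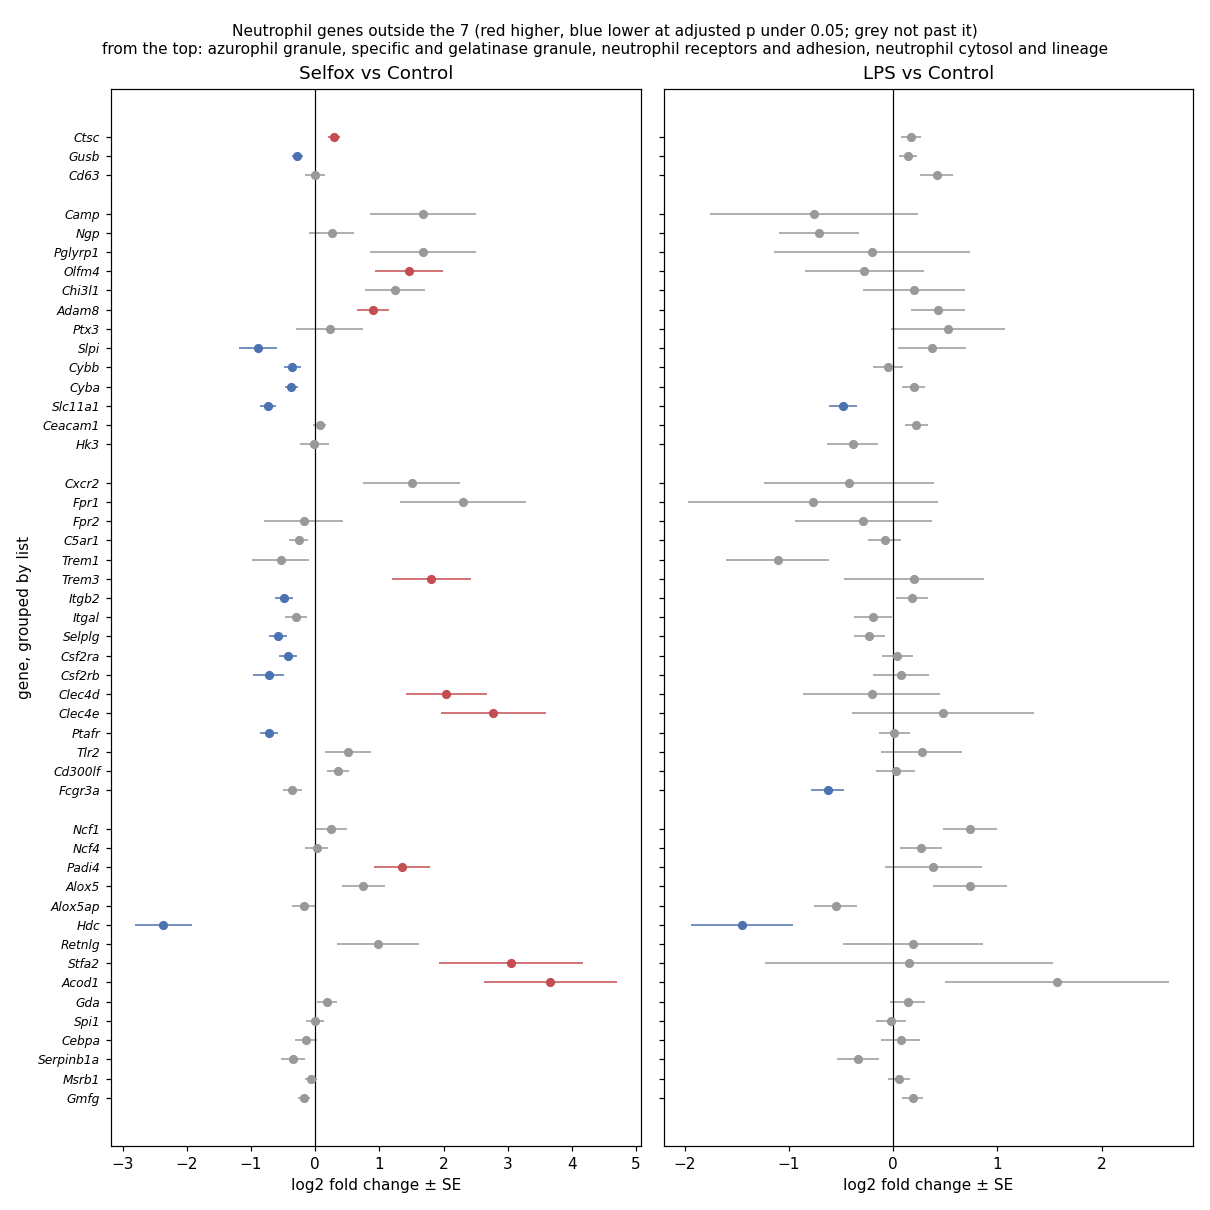
Log2 fold change with its SE for tested neutrophil genes outside the 7, grouped by list from top to bottom, in Selfox against Control (left) and LPS against Control (right); red and blue mark genes past an adjusted p of 0.05. In Selfox against Control 9 points are red and 11 blue.

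By their highest Selfox libraries the other neutrophil genes resembled the 7 in part. The 5 Selfox libraries highest for S100a8 were also the 5 highest for 8 of the 18 receptor and adhesion genes tested (among them Cxcr2, Fpr1, Csf2rb, Clec4d and Clec4e), for 7 of 15 cytosol and lineage genes (Ncf1, Ncf4, Alox5, Alox5ap, Retnlg, Stfa2 and Acod1) and for 3 of 13 specific and gelatinase granule genes (Camp, Chi3l1 and Cybb). The share among all tested genes was 2.86%. These 5 highest libraries were shared by 0 of 3 azurophil, 10 Kupffer cell and 7 T and B cell genes tested. They were also shared by 0 of 9 monocyte, 6 eosinophil, basophil and mast cell, and 5 hepatocyte genes. Of 10 erythroid and platelet genes 1 shared them, Gp9. At a share of 2.86% lists this short would often hold 0, so these counts draw no contrast. Csf2rb, the common beta chain of the receptors for several myeloid growth factors, and Cybb were highest in the 5 libraries and still lower in Selfox than in Control. Csf2rb was at -0.72 ± 0.24 (adjusted p = 0.0288), a call lost without Control 40, 46, 49 or 52. Cybb was at -0.35 (adjusted p = 0.0496), a call lost in 11 of 16 fits with 1 library left out.

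Most of the tested genes for attraction and adhesion of neutrophils and other leukocytes rose in Selfox. Of 19 chemokines, cytokines and adhesion molecules listed, 12 were tested, and 9 rose in Selfox against Control and 8 in Selfox against LPS, beside 14.2% and 6.86% of all tested genes, with median log2 fold changes of 2.65 and 2.62. Between LPS and Control edgeR called 0, with 1 lower and 0 higher at an unadjusted p under 0.05, and DESeq2 and limma voom called 0 higher. Ccl4, a chemokine for monocytes and lymphocytes, had 1.33 to 39.5 CPM in Selfox (median 14.3), 0.832 to 2.55 CPM in LPS and 0.760 to 3.17 CPM in Control. Its log2 fold change against Control was 3.54 ± 0.70 (adjusted p = 0.000808), and 8 of 10 Selfox libraries were above every Control library. Csf1, the macrophage growth factor, rose by 1.77 ± 0.35 (adjusted p = 0.000833), above every Control library in 10 of 10.

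Icam1, on which neutrophils adhere to endothelium through integrins, had 19.8 to 570 CPM in Selfox (median 71.9), 21.5 to 40.8 CPM in LPS and 17.5 to 36.2 CPM in Control, a log2 fold change of 2.89 ± 0.68 against Control (adjusted p = 0.00322). Cxcl2, a ligand of the neutrophil receptor CXCR2, had 2.03 to 82.0 CPM in Selfox (median 17.3), 0.588 to 3.39 CPM in LPS and 0.949 to 14.1 CPM in Control. It rose by 2.74 ± 0.77 against Control (adjusted p = 0.0112) and by 4.43 ± 0.80 against LPS (adjusted p = 0.000806). Cxcl1, a ligand of the same receptor, ranged from 9.33 to 668 CPM in Selfox (median 187), from 5.51 to 124 CPM in LPS (median 63.9) and from 3.21 to 85.9 CPM in Control (median 13). It rose by 3.29 ± 1.09 against Control (adjusted p = 0.0279, lost without Control 41, 49, 52 or 55) and was 1.94 ± 0.95 against LPS (adjusted p = 0.187). Sele, the endothelial selectin, reached 8.38 CPM in Selfox, against at most 0.0832 CPM in LPS and 0.0559 CPM in Control.

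The gene for G-CSF, the ligand of the Csf3r product, was too low to test, at no more than 0.351 CPM in Selfox, 0.111 CPM in LPS and 0.121 CPM in Control. The same 5 Selfox libraries, in any order, were the highest for 9 of the 12 tested ligands and adhesion molecules, beside 2.86% of all tested genes. The 9 were Cxcl1, Cxcl2, Csf1, Il6, Ccl3, Ccl4, Sele, Icam1 and Vcam1. With each library left out in turn the count called higher ranged from 7 to 9 in Selfox against Control and in Selfox against LPS. Under the other alternatives, counted over all 19 listed genes, it was 6 (limma voom) to 12 (DESeq2) in Selfox against Control. In Selfox against LPS it was 5 (replicate block) to 11 (DESeq2).

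**Figure D3:**
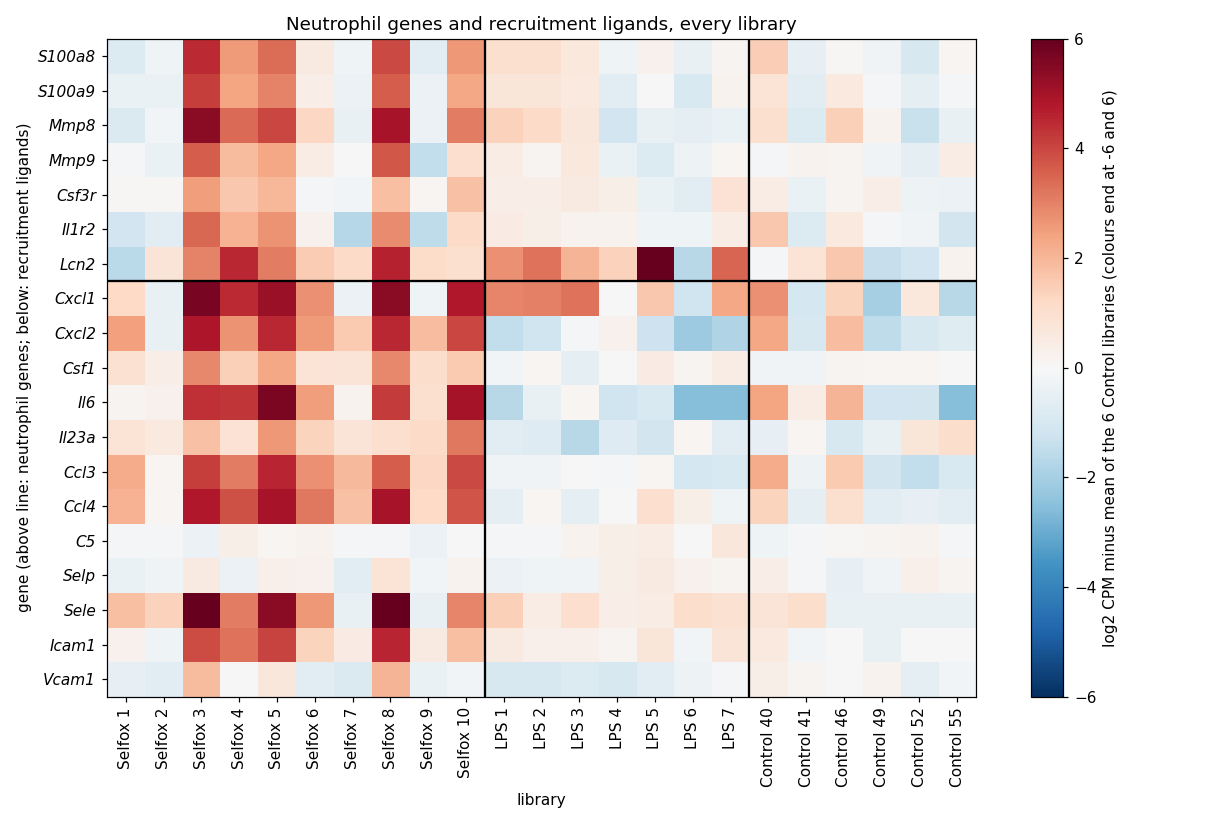
Log2 CPM minus the mean of the 6 Control libraries for the 7 genes and, below the line, recruitment ligands and adhesion molecules. There is 1 column per library, with Selfox, LPS and Control from left to right. Selfox 3, 4, 5, 8 and 10 are the highest Selfox libraries for 6 of the 7 genes and for 9 of the 12 ligands and adhesion molecules. The share of all tested genes is 2.86%.

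Partners of the receptors and enzymes gave a mixed picture. Of 18 tested genes of the interleukin-1 pathway, to which the decoy receptor Il1r2 belongs, 4 rose and 4 fell in Selfox against Control. The shares of all tested genes were 14.2% and 14.9%. Il1a, an interleukin-1 cytokine, rose by 1.18 ± 0.31 (adjusted p = 0.00632), and Nlrp3, an inflammasome sensor, by 1.46 ± 0.41 (adjusted p = 0.0107). Pycard, the adaptor of the inflammasome, was lower, at -0.69 ± 0.13 (adjusted p = 0.000381), in 10 of 10 libraries below every Control library. Il1b, the other ligand that the decoy receptor binds, had 8.86 to 158 CPM in Selfox (median 62.0), 13.5 to 29.3 CPM in LPS and 4.64 to 68.2 CPM in Control. It was 1.60 ± 0.62 against Control (adjusted p = 0.0554) and rose by 1.94 ± 0.59 against LPS (adjusted p = 0.0295), a call lost without Selfox 3, Selfox 5, LPS 1, LPS 2, LPS 5, LPS 6 or LPS 7. The LPS livers had 3 of these 18 genes higher than Control, beside 7.71% of all tested genes. Among the 3 was the alarmin Il33, by 0.80 ± 0.13 (adjusted p = 0.000504).

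Of 14 other tested metalloproteinase genes and inhibitors 1 rose and 1 fell in Selfox against Control, beside 14.2% and 14.9% of all tested genes. Timp3, a tissue inhibitor bound to matrix, rose by 0.89 ± 0.28 (adjusted p = 0.0204), and Mmp14, a membrane-bound collagenase of stromal cells, was lower, at -0.75 ± 0.16 (adjusted p = 0.00114). Mmp12, the macrophage elastase, rose in Selfox against LPS by 1.88 ± 0.49 (adjusted p = 0.0117). Timp1, the inhibitor that binds the Mmp9 product, had a log2 fold change of 0.16 ± 0.20 in Selfox (adjusted p = 0.581) and 0.33 ± 0.22 in LPS (adjusted p = 0.333), both against Control.

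Of 13 other tested S100 genes and calprotectin receptors 2 rose in Selfox against Control, beside 14.2% of all tested genes. They were S100a6, by 0.53 ± 0.16 (adjusted p = 0.0125), and Cd36, a fatty acid and lipid receptor, by 0.88 ± 0.25 (adjusted p = 0.0104). Tlr4, the receptor for lipopolysaccharide and for calprotectin, was lower in LPS than in Control, at -0.74 ± 0.22 (adjusted p = 0.0250), lost without Control 46 or Control 52. In Selfox against Control Tlr4 had -0.28 ± 0.20 (adjusted p = 0.313). Of 9 tested genes of lipocalin 2 uptake and iron 3 rose in Selfox and 2 in LPS, both against Control. The shares of all tested genes were 14.2% and 7.71%. Lrp2, the endocytic receptor megalin that takes up lipocalin 2, rose by 1.16 ± 0.18 in Selfox (adjusted p = 9.73e-05) and by 0.72 ± 0.19 in LPS (adjusted p = 0.0144). Bdh2, whose enzyme has been linked to a mammalian siderophore, rose by 0.79 ± 0.18 in Selfox (adjusted p = 0.00184) and by 0.87 ± 0.19 in LPS (adjusted p = 0.00355).

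Lcn2 is also an acute phase gene of hepatocytes, and 20 genes of that response were tested. In the LPS livers 5 rose against Control, beside 7.71% of all tested genes. Among the 5 were Cp, ceruloplasmin, by 0.64 ± 0.15 (adjusted p = 0.00676) and Hp, haptoglobin, by 0.57 ± 0.15 (adjusted p = 0.0151). In Selfox against Control 3 rose and 1 fell, beside 14.2% and 14.9% of all tested genes. Orm1, orosomucoid, rose by 1.15 ± 0.32 (adjusted p = 0.00985). Among LPS libraries LPS 7 was the highest for 12 of the 20 genes, LPS 1 for 4, LPS 5 for 3 and LPS 3 for 1. The summed level of the acute phase genes in LPS 5, the library with the most Lcn2, was 88229 CPM. It was 102954 CPM in LPS 7 and 84810, 84114 and 81951 CPM in LPS 1, 3 and 2. Lcn2 itself had 138.1 CPM in LPS 5 and 9.10 CPM in LPS 7, the library with the highest sum. Of the 12 tested recruitment ligands and adhesion molecules, LPS 5 was the highest LPS library for 4, LPS 7 for 3 and LPS 3 for 2. The source of Lcn2 in LPS 5 was not tested.

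Markers of other cells moved with the groups too. The summed level of 11 Kupffer cell markers was 293 to 437 CPM in Selfox, 643 to 974 CPM in LPS and 754 to 998 CPM in Control, with Selfox below both and Selfox 3 the lowest library of all. Of 10 tested Kupffer markers 9 fell in Selfox against Control, beside 14.9% of all tested genes. They were led by the scavenger receptor Marco at -2.94 ± 0.14 (adjusted p = 7.70e-13) and Vsig4, a complement receptor, at -2.03 ± 0.12 (adjusted p = 1.39e-10). Of 9 tested monocyte markers 2 fell in Selfox, beside the same 14.9%. They were Csf1r by 1.21 and Cd68 by 0.94 on the log2 scale (adjusted p = 3.51e-06 and 3.07e-05), both also macrophage genes. The sum of the monocyte markers was 90.03 to 185 CPM in Selfox, 141 to 200 CPM in LPS and 138 to 207 CPM in Control. Of 7 tested T and B cell markers 6 fell in Selfox, with sums of 1.90 to 4.005 CPM in Selfox, 3.75 to 5.73 CPM in LPS and 3.74 to 6.66 CPM in Control.

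Erythroid and platelet markers, which come with the blood in the tissue, summed to 38.8 to 229 CPM in Selfox, 68.3 to 287 CPM in LPS and 140 to 303 CPM in Control, and the groups overlapped. Of 10 tested, 1 rose in Selfox against Control, Slc4a1 by 0.73 ± 0.21 (adjusted p = 0.0129), and 1 fell, Itga2b by 0.48 on the log2 scale (adjusted p = 0.00816). The shares of all tested genes were 14.2% and 14.9%. Of the 6 tested eosinophil, basophil and mast cell markers the nearest to the threshold was Fcer1a in LPS against Control, at 1.33 ± 0.48 (adjusted p = 0.0636). Among hepatocyte genes 3 of 5 fell in Selfox, beside 14.9% of all tested genes, led by Apoa1 at -1.02 ± 0.15 (adjusted p = 3.32e-05). The part of these markers in the levels of the 7 genes was not tested.

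**Figure D4:**
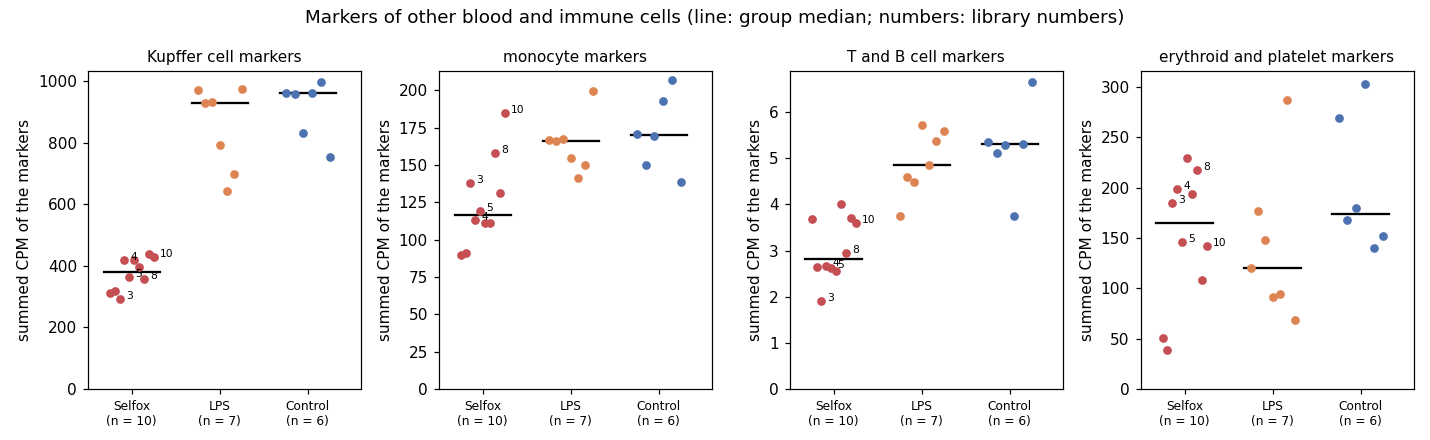
Summed CPM of marker genes of other blood and immune cells, 1 point per library in Selfox, LPS and Control from left to right, with a line at the group median and library numbers on Selfox 3, 4, 5, 8 and 10. The Kupffer cell sums of Selfox lie between 293 and 437 CPM, below both other groups, while the erythroid and platelet sums overlap.

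The genes most like the 7 were sought by the Spearman rank correlation between each tested gene and the mean standardized log2 level of the 7, as a description. Over the 10 Selfox libraries the nearest was Mcemp1, a membrane protein of mast cells and other myeloid cells, at rho 0.99, and Camp, Cxcr2, Htra4, Map3k8, Plaur, Trem1 and an unnamed entry followed at 0.98. Over all 23 libraries Mcemp1 was again first at 0.93, followed by Clec4e at 0.92, the unnamed entry at 0.91, Map3k8 at 0.90, Jak2 at 0.89, Cxcl1 and Nfkbiz at 0.88 and Tubb6 at 0.88. Mcemp1 had 0.0872 to 4.28 CPM in Selfox (median 0.725), 0.224 to 0.528 CPM in LPS and 0.0829 to 0.524 CPM in Control. Map3k8, a kinase that acts downstream of Toll-like and tumour necrosis factor receptors, had 5.13 to 72.1 CPM in Selfox (median 12.1), 5.02 to 8.43 CPM in LPS and 3.79 to 8.37 CPM in Control. Trem1, an amplifier of neutrophil responses, was alike within Selfox but not in level, with 0.0436 to 1.05 CPM in Selfox, 0.0964 to 0.425 CPM in LPS and 0.470 to 0.726 CPM in Control. Of the 7 genes themselves, Mmp8 had the highest rho with the mean within Selfox, 0.99, and Csf3r and Lcn2 the lowest, 0.78.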

How the data were processed

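The deposited table holds read counts per gene for 23 rat liver libraries made with a stranded mRNA kit, per the labels. Per the submitters' processing notes the authors used FastQC, Trim Galore, STAR 2.7.9a and featureCounts of Subread 2.0.3 to make these counts. Genome build, annotation and strand setting were not given in the sources used here, which leaves overlapping genes and antisense pairs uncertain. Of the counts from 1 to 9, 66.1% to 74.9% per library were even numbers, and a fit with counts divided by 2 was therefore run.

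The filterByExpr function of edgeR, at a minimum count of 10, left 15079 of the 21753 genes that had any count. Counts were scaled by TMM factors, the 3 groups were fitted together and 3 contrasts were tested by edgeR's quasi-likelihood test with robust dispersion and Benjamini-Hochberg adjustment over all tested genes, at a threshold of 0.05. Standard errors were derived from the log2 fold change and the F statistic. A prior count of 2 was added for log2 CPM. Versions were edgeR 4.0.16, DESeq2 1.42.0 and limma 3.58.1 under R 4.3.3, and the steps were tested on simulated data.

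The 7 genes, the gene lists and the tests were chosen with earlier results of these data known. Named genes outside the 7 are up to 4 of each list by adjusted p in a comparison (2 nearest where none passed), the defining markers Mpo, Elane, Cxcr2, Ltf and Camp, and the 8 genes most like the 7 over Selfox and over all libraries. Some were named outside this rule after their values were seen, among them Cxcl1, Il1b, Timp1, Fpr1 and the members of small counts. No 2 libraries agreed within sampling noise, and no library was left out. Some values of the lists are not reported here.

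The alternatives comprised RLE factors, a minimum count of 50 or no filter, DESeq2, limma voom, fits of 2 groups alone, thinning to equal depth, counts divided by 2, each library left out, a block for shared replicate numbers, and a fit without Selfox 8, LPS 5, LPS 6, LPS 7 and Control 55. In these libraries Dbp exceeded Arntl, a pair of clock genes with opposite daily peaks, and the labels give no hour of collection.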

Additional observations from a re-analysis of the deposited data

Results flagged for a closer look

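Within a group, the gap between the highest or lowest library and its nearest neighbour, divided by the range of the group on the CPM scale, was compared with Dixon's critical value for each of the 7 genes in each of the 3 groups. Of these 21 checks 2 passed. The critical values flag about 1 in 20 by chance only for normally distributed values. CPM were not shown to be so distributed, so the flags are a description. S100a8 in Control 40 had 3.35 CPM, with a gap of 0.749 of the Control range against a critical value of 0.625 for 6 libraries; the same library was the highest Control library for S100a9, Csf3r and Il1r2. Lcn2 in LPS 5 had 138.1 CPM, with a gap of 0.936 of the LPS range against a critical value of 0.568 for 7 libraries. LPS 5 was not the highest LPS library for any of the other 6 genes.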

How the results depend on the processing

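The log2 fold changes of S100a8, S100a9, Mmp8, Mmp9, Csf3r and Il1r2 kept a positive sign in Selfox against Control and in Selfox against LPS under all alternatives run. Between LPS and Control Csf3r ranged from 0.13 to 0.37 with 1 library left out, while S100a8, S100a9, Mmp8, Mmp9 and Il1r2 changed sign in at least 1 fit, S100a9 and Mmp8 only with 1 library left out. Mmp9 could not be fitted at a minimum count of 50. Depth in Control limits the low genes.

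Genes called with 1 library left out ranged from 1409 (without Control 49) to 2723 (without Control 55) in LPS against Control, where 2217 were called. Of the 7 genes, the counts called with 1 library left out were 0 to 1 in LPS against Control, 2 to 5 in Selfox against Control and 1 to 5 in Selfox against LPS. With limma voom they were 0, 0 and 0, and without the libraries with Dbp above Arntl also 0, 0 and 0; with the 2 groups alone they were 0 in LPS against Control and 1 in Selfox against LPS. Leaving out the libraries with Dbp above Arntl gave 1434 genes called in Selfox against LPS (2187 with all libraries), 4920 in Selfox against Control (4385) and 2209 in LPS against Control (2217).

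Of the other neutrophil genes, the number higher in Selfox against Control (9) was 5 with a minimum count of 50, 2 with limma voom, 3 without the libraries with Dbp above Arntl, and 4 to 11 with 1 library left out. In Selfox against LPS (8) it was 4 with no filter, 1 with a minimum count of 50, 1 with limma voom, 3 with the 2 groups alone, 5 when thinned, 0 without the libraries with Dbp above Arntl, and 2 to 10 with 1 library left out; it was 2 without Selfox 3, 3 without Selfox 8, 4 without Selfox 5, LPS 2, LPS 6 or LPS 7, and 5 without Selfox 10, LPS 1, LPS 3, LPS 4 or LPS 5. In LPS against Control (0) it was 1 with DESeq2, with the 2 groups alone and without the libraries with Dbp above Arntl, and 0 to 1 with 1 library left out. The number lower was 1 to 3 in LPS against Control and 6 to 12 in Selfox against Control with 1 library left out, the lowest in both without Control 52. The cause was not tested.

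LPS and Selfox share the replicate numbers 1 to 7, but same-numbered libraries showed little shared deviation (correlations -0.0595 to 0.160, with 1 of 7 over 0.1, and 1 library closest to its own number). These correlations cannot settle whether the numbers pair libraries, and the main fit did not pair them. With the replicate block on these 14 libraries 1259 genes were called in Selfox against LPS, 0 of the 7 genes, 1 other neutrophil gene higher and 5 recruitment ligands. Without the block the same 14 libraries gave 1617, 0, 2 and 7.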
